A study of Mus musculus with 2 samples.

Results

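The genes described here are 10 secreted factors of the bone morphogenetic protein (BMP) and activin pathways, of 32285 genes in the matrix. They were chosen by their measured values in these cells, so their levels are given as a description. BMPs and activins are secreted dimers of the TGF-beta family that bind complexes of type I and type II receptor kinases, which pass the signal to the nucleus through SMAD proteins. Secreted antagonists bind the ligands outside the cell and keep them from their receptors. In skin, these pathways are known for their part in hair follicle growth, epidermal differentiation and wound repair. By role, the ligand genes are Inhba, Inhbb, Bmp2, Bmp4, Bmp6 and Gdf10, and the genes listed with the antagonists are Fst, Fstl1, Grem1 and Chrdl1.

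The study profiled cells from the dorsal shaved skin of WT male mice at 2 ages, 9 week and 108 week. For each age, the skin of 2 mice was pooled into 1 library, so there are no replicates. A gate on F4/80 and high MHC class II was used to collect macrophages, whose RNA was read as 3′ single-cell libraries that count unique molecular identifiers (UMIs). Both libraries lie in 1 matrix and differ by the suffix of their barcodes, whose age could not be traced, so they are called by suffix 1 and suffix 2, ages were not compared, and values of both libraries together stand beside those of each.

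Suffix 1 marked 3235 barcodes with 35821853 UMIs, and suffix 2 marked 2022 with 20382748. A filter on genes (500 or more), UMIs (1000 or more) and mitochondrial UMIs (10% or less) kept 2396 and 1401 cells, with medians of 10761 and 11196 UMIs. All barcodes together shared 1 barcode sequence between the libraries, and kept cells shared 0.

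The kept cells only partly matched the label of the sort. Of 3797 cells, 2039 fell in clusters with macrophage or dendritic markers (53.7%, 52.1 to 55.3), and 1758 (46.3%) fell outside them. The macrophage-like and dendritic-like share was 66.6% with suffix 1 and 31.7% with suffix 2, so the libraries also differ in which cells they hold. Classes are named as like a cell type where marker genes led, as macrophage-like (1507 cells, 518 of them in clusters that matched monocyte markers best), dendritic-like (532, 156 of them in clusters that matched mature dendritic markers best), fibroblast-like (827) and endothelial-like (295). The smaller classes were lymphatic endothelial-like (56), pericyte or smooth muscle-like (169), Schwann-like (126), keratinocyte-like (77), mast-like (32) and T or NK-like (34). Clusters led by the skeletal muscle genes Acta1 and Mylpf (90 cells) and by Erfe, Gal and Myod1 (52 cells) were left without a name, 2.37% and 1.37% of kept cells. A dendritic-like cluster of 121 cells was led by the B cell genes Igkc and Cd79a, and another of 33 cells by genes of dividing cells.

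The fibroblast-like cells were divided into 4 groups called by genes alone, and the 10 genes and the other pathway genes were left out of that step. The genes that name the groups were chosen with earlier results of these data known, so the groups are not independent of the 10 genes. Levels over the groups, such as those of Grem1 and Gdf10, are therefore a description. The Prlr Crabp1 group had 61 cells (49 and 12 with suffix 1 and 2), the Igfbp2 Cyp26b1 group 137 (23 and 114), and the Inmt C3 group 186 (45 and 141). The Ptx3 Has1 Prg4 group had 72 cells, of which 1 had suffix 1, so its values are nearly those of suffix 2. It was led by Cxcl5, Cxcl3, Cxcl2, Ptgs2 and other genes of inflammation. The other 371 fibroblast-like cells (200 and 171) lay in no group, and 16 of them were in subclusters led by MHC class II or endothelial genes. The Prlr Crabp1 cells had a median of 40069 UMIs (64076 and 6877.5) against 13097 over all fibroblast-like cells, and their Col1a1 level was 309.8 CPM against 1574 to 102087 CPM in the other fibroblast subclusters. None of these 61 cells reached the threshold for markers of a second compartment, which was a share of UMIs of at least 20% of the median in that compartment's own cells.

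Levels are UMIs of a gene per 1000000 UMIs of a class (CPM), with exact 95% Poisson intervals. All intervals, on CPM, log2 ratios and shares of cells, cover counting error only and say nothing of spread between mice. A gene was called higher or lower at a 2-fold difference with at least 20 UMIs in both classes together, and a count of 0 was set to a limit of 3 counts. Libraries capture the 3′ end, so levels are compared between cells and not between genes.

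All 10 genes were higher in fibroblast-like cells than in macrophage-like and dendritic-like cells together, a direction that also held for 28.6% of the 13719 genes tested. The median log2 ratio was 7.95 over the 10 genes and 0.18 over all genes tested, with counts of 0 at their limit. The genes were chosen for such levels, so nothing is read from this count. With suffix 1 alone 10 of 10 were higher, against 27.8% of all genes, and with suffix 2 alone 9 of the 9 with enough UMIs, without Bmp6, against 27.4%. The smallest of these ratios, in both libraries together and with suffix 1 but not with suffix 2, was that of Bmp2, a ligand whose log2 ratio was 2.64 (2.42 to 2.87), with 2.64 (2.39 to 2.89) for suffix 1 and 3.23 (2.69 to 3.81) for suffix 2. For Inhba it was 4.19 (4.03 to 4.35), with 4.90 (4.72 to 5.08) and 2.16 (1.82 to 2.51) in each library alone, so the fold of 18.2 fell to 4.46 without suffix 1. Without the Prlr Crabp1 group, left out after the data were seen, the log2 ratio of Inhba was 0.85 (0.62 to 1.07), below 2-fold, with -0.62 (-1.12 to -0.15) for suffix 1 alone, the other direction, and 1.49 (1.13 to 1.86) for suffix 2 alone. In that setting 8 of the 9 genes with enough UMIs were higher, against 25.2% of all genes. The ligand gene Gdf10 had 0 UMIs in macrophage-like and dendritic-like cells. With this 0 set to the limit of 3 counts, it was 369-fold higher in fibroblast-like cells, and 198-fold and 124-fold in each library alone. Such folds at a limit leave out the counting error of the other class.

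**Figure D1:**
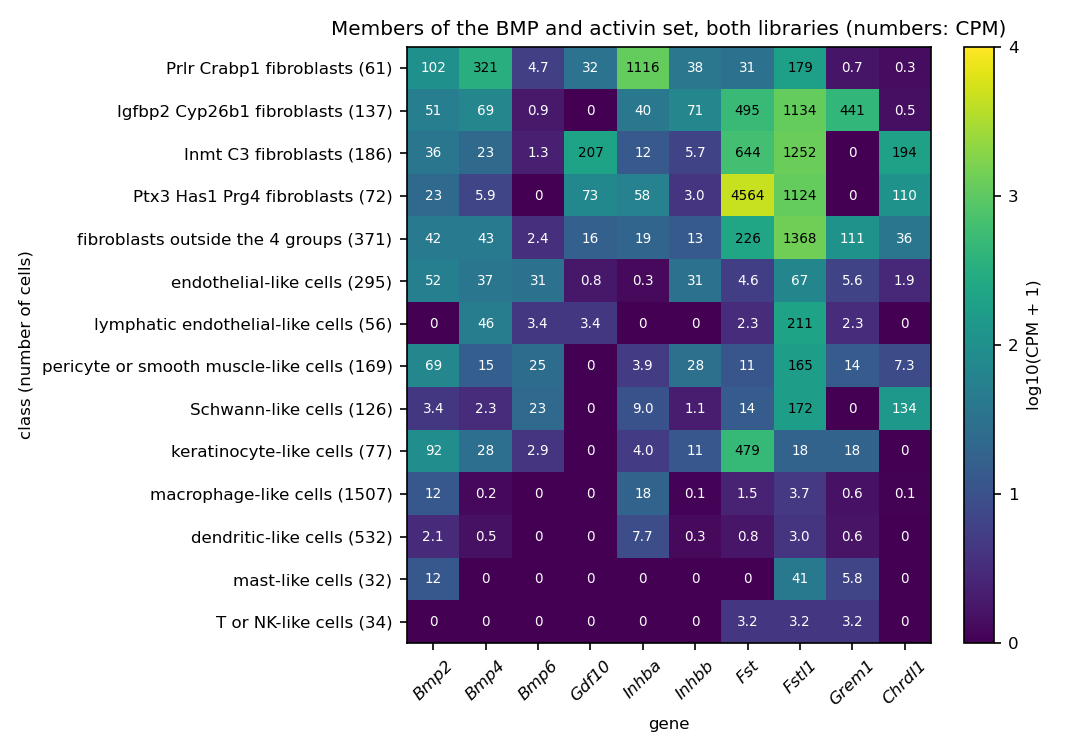
Each tile gives the CPM of a gene (columns) in a class (rows, with the number of cells) over both libraries, coloured by log10(CPM + 1). The highest level of Inhba (1116 CPM) and of Bmp4 (321) was in the Prlr Crabp1 group, that of Fst (4564) in the Ptx3 Has1 Prg4 group and that of Grem1 (441) in the Igfbp2 Cyp26b1 group.

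Inhba (ENSMUSG00000041324, chromosome 13, 16011851 to 16031621) encodes the beta A chain of activin A, a ligand of the activin receptors that follistatin binds. Its level in the Prlr Crabp1 group was 1116 CPM (1079 to 1155), with 1134 (1095 to 1174) in the library with suffix 1 and 838 (709 to 984) with suffix 2. Both libraries were therefore high in this group, which held 3312 of 3994 UMIs, 82.9% (81.7 to 84.1), of Inhba in all kept cells. Over the other fibroblast-like cells the log2 ratio was 5.41 (5.23 to 5.59), with 6.86 (6.43 to 7.33) for suffix 1 alone and 4.46 (4.15 to 4.76) for suffix 2 alone. The fold was thus 42.5 over both libraries, 117 without suffix 2 and 21.9 without suffix 1. The group's cells were the deepest fibroblast-like cells with suffix 1, at a median of 64076 UMIs, but not with suffix 2, where it was 6877.5 against 12071 over all fibroblast-like cells, and the part of depth in its CPM values was not tested. After each cell was thinned to 2000 UMIs, 72.1% (59.2 to 82.9) of the group's cells had an Inhba UMI, and none of its cells was left out, but with classes set per cell the share was 33.3%. Unthinned, the share was 85.2%, at a median of 40069 UMIs. The endothelial-like cells, a class with 1 Inhba UMI, gave 0 of 273 thinned cells, which allows up to 1.10%, with 22 cells left out, 0.339% unthinned and a median of 9696 UMIs. With suffix 2 alone the thinned share in the Prlr Crabp1 group was 33.3% of 12 cells. No cell dominated the sum, since the cell with the most UMIs gave 6.37% of it and the 5 highest gave 30.4%. The next levels of Inhba in order were 58.2 CPM (44.3 to 75.1) in the Ptx3 Has1 Prg4 group and 39.5 (31.7 to 48.8) in the Igfbp2 Cyp26b1 group, whose intervals overlap. In the Ptx3 Has1 Prg4 group, 47 of 59 UMIs came from 1 cell, so that level describes a cell more than a group. After these came the fibroblast-like cells outside the groups at 19.4 (16.0 to 23.4), macrophage-like cells at 17.6 (15.7 to 19.7) and the Inmt C3 group at 12.0 (7.25 to 18.8), whose intervals also overlap. These orders did not hold in each library, since with suffix 1 and 2 the Igfbp2 Cyp26b1 group had 7.84 (1.62 to 22.9) and 46.2 (36.8 to 57.2), cells outside the groups 7.89 (5.24 to 11.4) and 38.1 (30.4 to 47.3), macrophage-like cells 17.2 (15.1 to 19.6) and 18.8 (14.9 to 23.6), and the Inmt C3 group 25.7 (13.3 to 44.9) and 6.29 (2.53 to 13.0). Among the cells outside the groups, a subcluster of 43 cells led by Chchd10, Lrrc15, Mmp11 and Acta2 reached 163 CPM (125 to 210.5), with 48.8 for suffix 1 and 346 for suffix 2 and 14 cells carrying a UMI.

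Inhbb (ENSMUSG00000037035, chromosome 1, 119415465 to 119422248) encodes the beta B chain, which forms activin B. Its level was 70.9 CPM (60.2 to 82.9) in the Igfbp2 Cyp26b1 group, with 52.3 (31.9 to 80.8) for suffix 1 and 74.8 (62.7 to 88.5) for suffix 2. The log2 ratio to the other fibroblast-like cells was 2.02 (1.71 to 2.33), and 1.40 (0.65 to 2.09) and 2.43 (1.98 to 2.88) in each library alone, so the fold went from 2.64 to 5.38. Unlike Inhba, Inhbb was spread over several classes. Its 156 UMIs in that group and 117 in endothelial-like cells were 25.9% and 19.4% of its 603 UMIs. The unnamed cluster led by Erfe and Gal had 69.0 (46.9 to 97.9), an interval that holds the group's level, followed by the Prlr Crabp1 group at 38.1 (31.4 to 45.8), endothelial-like cells at 31.4 (26.0 to 37.6) and pericyte or smooth muscle-like cells at 28.4 (22.0 to 36.2). The last 3 of these intervals overlap. In suffix 1 alone Inhbb was also called higher in the Prlr Crabp1 group than in the other fibroblast-like cells, at a log2 ratio of 1.78 (1.28 to 2.30) against 0.74 (0.40 to 1.07) in both libraries.

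Bmp4 (ENSMUSG00000021835, chromosome 14, 46383520 to 46390669) encodes a BMP ligand that fibroblasts of the dermis and of the hair follicle are known to make. Its level in the Prlr Crabp1 group was 321 CPM (301 to 342), with 311 (290.2 to 332) for suffix 1 and 478 (382 to 591) for suffix 2. The group held 951 of 1718 UMIs, 55.4% (53.0 to 57.7), of Bmp4. Over the other fibroblast-like cells the log2 ratio was 2.93 (2.77 to 3.097), a fold of 7.63, and in each library alone it was 2.67 (2.46 to 2.90) and 3.68 (3.31 to 4.05), folds of 6.38 and 12.8. Thinned to 2000 UMIs, 41.0% (28.6 to 54.3) of the group's cells had a Bmp4 UMI (86.9% unthinned), against 0.0508% (0.00129 to 0.282) of macrophage-like and dendritic-like cells (0.392% unthinned). Those cells had a median of 11036 UMIs, and 69 of them were left out by the thinning. Below the Prlr Crabp1 group, the Igfbp2 Cyp26b1 group had 69.1 CPM (58.5 to 80.9), the Erfe and Gal cluster 60.1 (39.6 to 87.4) and lymphatic endothelial-like cells 46.3 (33.2 to 62.8), whose intervals overlap from each to the next. Fibroblast-like cells outside the groups followed at 43.2 (37.9 to 48.9) and endothelial-like cells at 36.5 (30.6 to 43.2), again with overlap. This order below the Prlr Crabp1 group was that of both libraries together. With suffix 2 alone the Erfe and Gal cluster had 83.9 (50.5 to 131) and lymphatic endothelial-like cells 27.0 (12.3 to 51.2). The Igfbp2 Cyp26b1 group had 41 Bmp4 UMIs of 382451 with suffix 1 and 111 of 1818695 with suffix 2. The Ptx3 Has1 Prg4 group was the lowest of the fibroblast groups, at 5.92 CPM (2.17 to 12.9) from 6 UMIs.

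Inhba and Bmp4 were both highest in the Prlr Crabp1 group, so the 250 bases before the start of each gene are shown, 5′ to 3′ on the gene's strand, from RefSeq for the build GRCm38.p6. The promoter table held 7 of the 10 genes. The motifs searched on both strands were the TATA box TATAAA, the site of AP-1 proteins TGANTCA, the site of CREB proteins TGACGTCA and the palindrome GGCGCC, and capitals mark a match.
Inhba, chr13:16011601-16011850, plus strand: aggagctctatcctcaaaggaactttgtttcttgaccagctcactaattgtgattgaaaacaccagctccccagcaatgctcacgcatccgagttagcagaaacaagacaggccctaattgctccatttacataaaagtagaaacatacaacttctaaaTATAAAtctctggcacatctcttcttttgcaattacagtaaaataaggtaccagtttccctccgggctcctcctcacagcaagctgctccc
Bmp4, chr14:46390670-46390919, minus strand: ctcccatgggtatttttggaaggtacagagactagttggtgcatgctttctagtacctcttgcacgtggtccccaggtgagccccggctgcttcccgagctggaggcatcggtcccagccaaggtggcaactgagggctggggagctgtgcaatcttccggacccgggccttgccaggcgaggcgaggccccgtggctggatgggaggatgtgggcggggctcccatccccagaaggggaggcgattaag
The window of Inhba held TATAAA, which 12.4% of 32851 promoters of this length hold, and that of Bmp4 held none of the 4 motifs. Among the other matched genes, Grem1 had a GGCGCC, found in 9.59% of promoters, and none of the 7 had TGANTCA (6.75%) or TGACGTCA (1.55%). The share of G and C was 43.2% for Inhba and 63.2% for Bmp4, against a median of 52.4% over all promoters. A match describes the letters of the window and not a binding site.

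Bmp2 (ENSMUSG00000027358, chromosome 2, 133552159 to 133562885) encodes a BMP ligand close in sequence to BMP4. Among classes and fibroblast groups, its highest level in both libraries together was also in the Prlr Crabp1 group. It was 102 CPM (91.3 to 115) there, with 105 (93.0 to 117) for suffix 1 and 67.5 (34.9 to 118) for suffix 2. The log2 ratio to the other fibroblast-like cells was 1.33 (1.11 to 1.54), but with suffix 2 alone it was 0.60 (-0.37 to 1.43), below 2-fold, on 12 UMIs. Keratinocyte-like cells had 91.7 (80.7 to 104) CPM, an interval that overlaps that of the Prlr Crabp1 group, and pericyte or smooth muscle-like cells 69.4 (59.1 to 81.0). With suffix 2 alone these 2 classes stood above the group, at 107 (88.0 to 129) and 88.9 (71.9 to 109), with intervals that overlap. Endothelial-like cells at 52.3 (45.3 to 60.2) and the Igfbp2 Cyp26b1 group at 50.9 (41.9 to 61.2) came next, and the intervals of all 5 overlap from each to the next. Fibroblast-like cells held 734 of 1584 UMIs, 46.3% (43.9 to 48.8), of Bmp2, so most of its UMIs lay outside them. Within the macrophage-like class, the cluster led by Ccl3 and Ccl4 that is described below stood above the Prlr Crabp1 group.

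Bmp6 (ENSMUSG00000039004, chromosome 13, 38345107 to 38500302) encodes a BMP ligand that endothelium of the liver is known to make in the control of iron balance. It was the sparsest of the 10 genes, and endothelial-like cells held 117 of 262 UMIs, 44.7% (38.5 to 50.9), of it in all kept cells. Their level was 31.4 CPM (26.0 to 37.6), with 35.6 (27.5 to 45.3) for suffix 1 and 27.2 (20.3 to 35.8) for suffix 2. The Erfe and Gal cluster stood above them, at 55.6 (36.0 to 82.1), with intervals that overlap, and pericyte or smooth muscle-like cells at 24.6 (18.6 to 31.8) and Schwann-like cells at 22.5 (13.8 to 34.8) also overlapped with the endothelial-like cells. Of the Erfe and Gal cells 46.2%, and of the pericyte or smooth muscle-like cells 65.7%, reached the threshold for markers of a second compartment, and the part of such cells in their level was not tested. In fibroblast-like cells Bmp6 had 32 UMIs, 14 of them in the Prlr Crabp1 group. The group's log2 ratio to the other fibroblast-like cells was 1.46 (0.34 to 2.55), with 1.01 (-0.23 to 2.29) for suffix 1 alone and too few UMIs with suffix 2 alone.

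Gdf10 (ENSMUSG00000021943, chromosome 14, 33923587 to 33937983), also called Bmp3b, encodes a ligand of the TGF-beta family related to BMP3. Its level in the Inmt C3 group was 207 CPM (185 to 231), with 189 (151 to 232) for suffix 1 and 215 (188 to 244) for suffix 2. The libraries were alike in this group, and the log2 ratio to the other fibroblast-like cells was 3.25 (3.01 to 3.49), with 3.21 (2.81 to 3.61) and 3.19 (2.86 to 3.51) in each library alone. Thinned, 31.9% (24.7 to 39.7) of the group's cells had a UMI (51.1% unthinned, median 7924 UMIs, 26 left out). Macrophage-like and dendritic-like cells gave 0 of 1970, which allows up to 0.152%, with 0% unthinned, a median of 11036 UMIs and 69 left out. In both libraries together Gdf10 stepped down from this group to the Ptx3 Has1 Prg4 group at 73.0 CPM (57.3 to 91.7), the Prlr Crabp1 group at 32.0 (25.9 to 39.1) and the cells outside the groups at 15.7 (12.6 to 19.3), each apart from the next beyond counting error. The last step was not seen with suffix 2 alone. There the Prlr Crabp1 group had 16.9 CPM (3.48 to 49.3) on 3 UMIs, and the cells outside the groups had 48 Gdf10 UMIs of 2176598. The Inmt C3 level came mostly from 1 of its 2 subclusters, 110 cells led by Car3 and Cxcl13 with 281 of the 327 UMIs, at 362 CPM (321 to 407). The other, 76 cells led by Thbs4 and Fmod, had 57.3 CPM (41.9 to 76.4), which overlaps with the Ptx3 Has1 Prg4 group. The Igfbp2 Cyp26b1 group had 0 UMIs, which allows up to 1.36 CPM. At that limit the level was 38.1-fold lower there than in the other fibroblast-like cells, in both libraries together. This limit is far weaker with suffix 1 alone, where all genes of the group had 382451 UMIs, against 1818695 with suffix 2. Outside fibroblast-like cells Gdf10 was nearly absent, with 586 of 592 UMIs, 98.99% (97.8 to 99.6), in them.

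Of the antagonists, Fst (ENSMUSG00000021765, chromosome 13, 114452290 to 114458951) encodes follistatin, which binds activins with high affinity and some BMPs. Its level in the Ptx3 Has1 Prg4 group was 4564 CPM (4433 to 4697), nearly all from suffix 2, where it was 4657 (4524 to 4793). The 1 cell of the group with suffix 1 had 2 Fst UMIs, so no value of the group can be given without suffix 2. The group held 4624 of 9523 UMIs, 48.6% (47.5 to 49.6), of Fst in all kept cells. Its log2 ratio to the other fibroblast-like cells was 4.03 (3.96 to 4.09), a fold of 16.3, and within suffix 2 alone 3.08 (3.01 to 3.15), a fold of 8.46. The last ratio compares cells of the same library. Thinned to 2000 UMIs, 87.3% (77.3 to 94.04) of the group's cells had a Fst UMI (95.8% unthinned, median 13792.5 UMIs, 1 left out). In macrophage-like and dendritic-like cells the share was 0.203% (0.0554 to 0.519) (1.32% unthinned). Among classes and groups, the next levels were 644 CPM (605 to 685) in the Inmt C3 group, 495 (466 to 525) in the Igfbp2 Cyp26b1 group and 479 (453 to 505) in keratinocyte-like cells, and the last 2 overlap. This order was that of both libraries together. With suffix 1 alone the Inmt C3 group had 510.2 (447 to 579) and the Igfbp2 Cyp26b1 group 57.5 (36.0 to 87.1), and with suffix 2 alone 700.3 (652 to 751) and 587 (552 to 623). Among the cells outside the groups, a subcluster of 61 cells led by Sfrp4 and Angpt4 had 151 CPM with suffix 1 and 946 with suffix 2. In the Igfbp2 Cyp26b1 group 234 of 1089 UMIs came from 1 cell. In keratinocyte-like cells, 444 of 1305 UMIs came from 1 cell, and the level was 557 (522 to 594) for suffix 1 and 347 (312 to 385) for suffix 2. The Prlr Crabp1 group, highest in Inhba, had 31.3 CPM (25.3 to 38.4), a log2 ratio of -4.61 (-4.92 to -4.31) to the other fibroblast-like cells. The ligand gene and the gene of its antagonist were thus highest in different fibroblast groups. In the Inmt C3 group the comparison of Fst with the other fibroblast-like cells depended on the library, with a log2 ratio of 3.31 (3.06 to 3.55) for suffix 1 alone, -0.90 (-1.01 to -0.79) for suffix 2 alone and 0.11 (0.01 to 0.21) for both.

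Grem1 (ENSMUSG00000074934, chromosome 2, 113746164 to 113758646) encodes gremlin 1, which binds BMP2, BMP4 and BMP7. Its level in the Igfbp2 Cyp26b1 group was 441 CPM (413 to 469), with 91.5 (63.7 to 127) for suffix 1 and 514 (482 to 548) for suffix 2. Both libraries were high relative to their other fibroblast-like cells, at log2 ratios of 2.02 (1.45 to 2.56) and 2.24 (2.08 to 2.41), against 2.96 (2.82 to 3.11) for both together. The folds were 4.05 and 4.74 in each library alone and 7.79 in both. Of the group's 970 Grem1 UMIs, 905 lay in its subcluster of 81 cells led by Igfbp2, at 631 CPM (590.5 to 673). Grem1 had 0 UMIs in the Inmt C3 group and in the Ptx3 Has1 Prg4 group, which allows up to 1.90 and 2.96 CPM. At these limits it was 71.1-fold and 43.5-fold lower there than in the other fibroblast-like cells, in both libraries together. With suffix 1 alone the limit for the Inmt C3 group is far weaker. That group had 466487 UMIs there, and all fibroblast-like cells had 189 Grem1 UMIs against 1419 with suffix 2. Thinned, 31.9% (24.1 to 40.4) of the Igfbp2 Cyp26b1 cells had a Grem1 UMI (53.3% unthinned, median 15311 UMIs, 2 left out), against 0 of 160 Inmt C3 cells, which allows up to 1.88%, at a median of 7924 UMIs and 0% unthinned. Fibroblast-like cells outside the groups had 111 CPM (103 to 120.1), with 336 CPM (303 to 371) in a subcluster of 71 cells led by Ctla2a and Lgr5, of which 2 cells had suffix 1. The libraries differed in the cells outside the groups, with 152 Grem1 UMIs of 3547541 for suffix 1 and 484 of 2176598 for suffix 2.

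Chrdl1 (ENSMUSG00000031283, chromosome X, 143285674 to 143394262) encodes chordin-like 1, an antagonist that binds BMP4. Its level in the Inmt C3 group was 194 CPM (173 to 217), with 159 (125 to 199) for suffix 1 and 209 (183 to 237) for suffix 2. The log2 ratio to the other fibroblast-like cells was 2.86 (2.63 to 3.09), and 3.70 (3.23 to 4.18) and 2.19 (1.92 to 2.46) in each library alone, folds of 7.26, 13.0 and 4.57. It was 281 CPM (245 to 321) in the group's subcluster led by Car3 and 109.6 CPM (87.9 to 135) in that led by Thbs4. Schwann-like cells came next at 134 (111 to 160.5) CPM, 144 (111 to 184) for suffix 1 and 124 (93.0 to 162) for suffix 2, and overlapped with the Ptx3 Has1 Prg4 group at 109.6 (90.1 to 132). Among classes and groups, Chrdl1 was thus the antagonist gene with its second highest level outside fibroblast-like cells. This ranking averages over the fibroblast-like cells outside the groups. Among these, a subcluster of 61 cells led by Sfrp4 and Angpt4 stood above the Schwann-like cells, at 328 CPM for suffix 1 and 228 for suffix 2. In the Igfbp2 Cyp26b1 and Prlr Crabp1 groups Chrdl1 had 1 UMI each, log2 ratios of -6.93 (-12.23 to -4.44) and -7.46 (-12.76 to -4.97) to the other fibroblast-like cells. Among fibroblast groups, then, Chrdl1 and Gdf10 were both highest in the Inmt C3 group. In this group 65 of 95 cells with a Gdf10 UMI also had a Chrdl1 UMI (68.4%), against 40.7% of its cells without Gdf10, and the part of depth in this difference was not tested.

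Fstl1 (ENSMUSG00000022816, chromosome 16, 37776873 to 37836514) encodes follistatin-like 1, a secreted protein of the matrix with a follistatin domain that is reported to bind BMPs. It was found in most fibroblast-like cells, at 1036 CPM (1019 to 1054), with 913 (891 to 936) for suffix 1 and 1177 (1151 to 1204) for suffix 2. Cells outside the groups had 1368 (1338 to 1398), the Inmt C3 group 1252 (1197 to 1308), the Igfbp2 Cyp26b1 group 1134 (1090.3 to 1179.8) and the Ptx3 Has1 Prg4 group 1124 (1059.8 to 1191), and the last 2 overlap. The Prlr Crabp1 group stood apart at 179 (164 to 195), a log2 ratio of -2.83 (-2.96 to -2.71) to the other fibroblast-like cells, and -2.92 (-3.05 to -2.79) and -3.103 (-3.73 to -2.54) in each library alone. It overlapped with Schwann-like cells at 172 (146 to 202) and lymphatic endothelial-like cells at 211 (182 to 244). Thinned, 79.1% (76.1 to 81.9) of all fibroblast-like cells had an Fstl1 UMI (95.4% unthinned, median 13097 UMIs, 47 left out), against 0.558% (0.279 to 0.997) of macrophage-like and dendritic-like cells (4.02% unthinned).

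**Figure D2:**
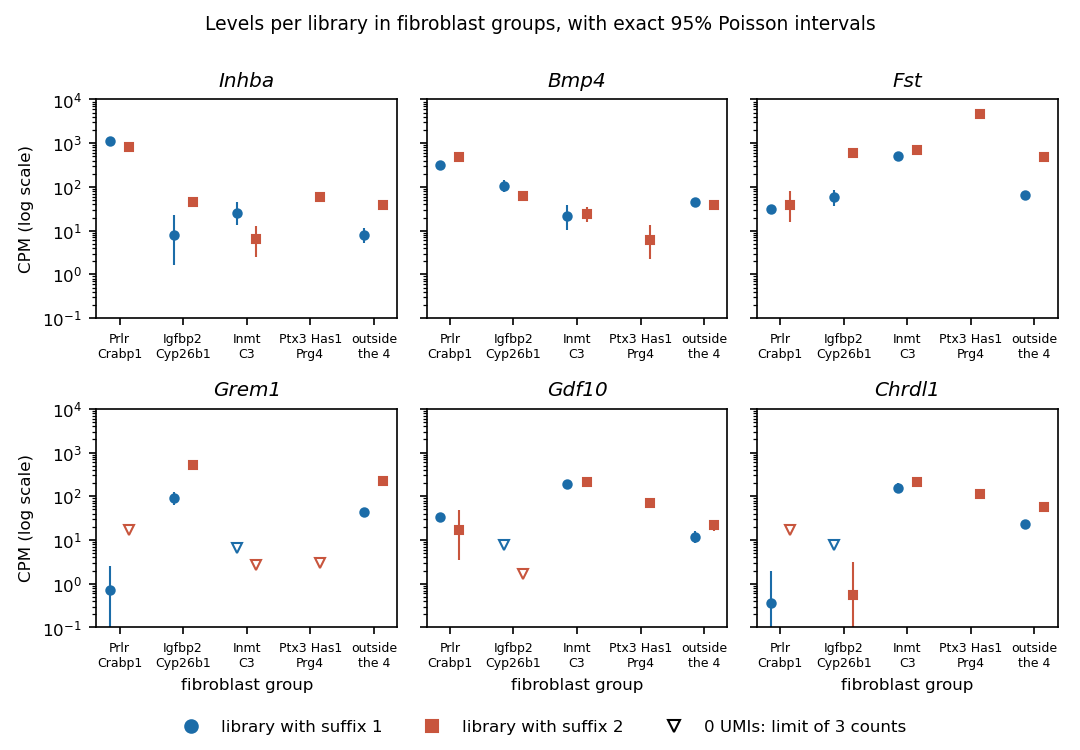
CPM on a log scale of 6 genes in each fibroblast group, with a point per library and exact 95% Poisson intervals as bars; open triangles mark a limit where 0 UMIs were counted, and the 1 cell of the Ptx3 Has1 Prg4 group with suffix 1 is not drawn. Inhba stands at 1134 and 838 CPM in the Prlr Crabp1 group, while Grem1 in the Igfbp2 Cyp26b1 group differs between the libraries, at 91.5 and 514 CPM.

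Counted over all 10 genes, 2 were called higher in the Ptx3 Has1 Prg4 group than in the other fibroblast-like cells, Fst and Chrdl1, where 5.49% of 11748 genes were, and 5 were lower, against 24.6%. With suffix 2 alone 1 of 9 was higher, against 4.09%, and 4 of 9 were lower, without Inhba, against 23.4%, and Chrdl1 fell to a log2 ratio of 0.73 (0.41 to 1.04) from 1.41 (1.10 to 1.71). Inhbb and Grem1 were called higher in the Igfbp2 Cyp26b1 group, 2 of 10 against 5.09% of all genes, and in each library alone, against 8.70% and 6.53%. Lower in it were 4, Inhba, Gdf10, Chrdl1 and Bmp6, against 10.8%, with suffix 1 alone 3, Inhba, Gdf10 and Chrdl1, against 14.4%, and with suffix 2 alone 3 of 9, Fst, Gdf10 and Chrdl1, against 7.14%. Gdf10 and Chrdl1 were called higher in the Inmt C3 group, 2 of 10 against 4.64%, and 4 of 10 were lower, against 17.0%. With suffix 1 alone Fst was added to the higher genes, 3 of 10 against 7.93%, and 4 of 10 were lower, against 19.0%, and with suffix 2 alone 2 of 9 were higher, against 2.55%, and 4 of 9 lower, against 12.6%. In the Prlr Crabp1 group 4 of 10 were higher, the ligand genes Inhba, Bmp4, Bmp2 and Bmp6, against 24.9% of all genes. The antagonist genes Fst, Grem1, Chrdl1 and Fstl1 were lower in it, against 16.2% of all genes, and with suffix 2 alone the ligand gene Gdf10 was too, 5 of 9 against 12.0%. With suffix 2 alone 2 of 9 were higher there, Inhba and Bmp4, against 23.3%, and with suffix 1 alone 5 of 10, with Inhbb, against 31.5%. All 10 genes were called higher or lower in at least 1 of the 4 groups, as were 59.6% of all genes, and nothing is read from these counts, since the genes were chosen with such values known.

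Endothelial-like cells were compared with fibroblast-like cells to describe which compartment holds each transcript. Of the 10 genes, 1 was higher in endothelial-like cells, Bmp6, where 18.5% of 12610 genes were higher. Its log2 ratio was 3.73 (3.15 to 4.34), with 3.36 (2.68 to 4.09) and 4.61 (3.46 to 5.996) in each library alone, folds of 13.2, 10.3 and 24.4. Thinned, 8.79% (5.71 to 12.8) of endothelial-like cells had a Bmp6 UMI (22.4% unthinned, median 9696 UMIs, 22 left out) against 0.385% (0.0794 to 1.12) of fibroblast-like cells (3.14% unthinned). Bmp2 and Inhbb stayed within 2-fold between these classes, at log2 ratios of -0.06 (-0.29 to 0.17) and 0.26 (-0.05 to 0.57). The other 7 genes were lower in endothelial-like cells, where 19.5% of all genes were lower, and 6 were with suffix 2 alone, against 19.5%. Fst was 4.56 CPM (2.66 to 7.31) there, a log2 ratio of -7.04 (-7.82 to -6.36), with -3.65 (-4.61 to -2.83) and -8.81 (-10.43 to -7.59) in each library alone. Grem1 was 5.64 CPM (3.49 to 8.62), a log2 ratio of -4.40 (-5.10 to -3.79), with -1.52 (-2.33 to -0.80) and -6.72 (-8.60 to -5.37) in each library alone. Endothelial-like cells thus held few transcripts of these 2 antagonist genes in either library. Fstl1 was 67.4 CPM (59.3 to 76.2) in endothelial-like cells, a log2 ratio of -3.94 (-4.13 to -3.76), with -3.62 (-3.87 to -3.37) and -4.29 (-4.57 to -4.02) in each library alone. For Bmp4 this depended on the library, with a log2 ratio of -1.50 (-1.77 to -1.25) in both, -2.26 (-2.67 to -1.88) for suffix 1 alone and -0.25 (-0.63 to 0.11) for suffix 2 alone, where it was not called. Of the fibroblast-like Bmp4 UMIs with suffix 1, 866 of 1081 came from the Prlr Crabp1 group.

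The endothelial-like cells formed 2 clusters, 247 cells led by Gpihbp1, Timp4 and Fabp4 and 48 cells led by Selp, Sele and Lrg1. Bmp6 was 43.3 CPM (35.8 to 52.0) in the former, 45.9 and 40.4 in each library, and 0.954 CPM (0.0242 to 5.32) from 1 UMI in the latter. Bmp2 was likewise higher in the former, at 66.9 CPM (57.4 to 77.4) against 15.3 CPM (8.73 to 24.8). In the latter, 14 of 16 Bmp2 UMIs had suffix 1. Of the endothelial-like Bmp2 UMIs, 55.9% came from 5 cells. Bmp4 and Inhbb did not separate the clusters beyond counting error, at 32.9 CPM (26.4 to 40.5) and 45.8 CPM (33.8 to 60.7) for Bmp4 and 30.3 CPM (24.0 to 37.6) and 34.4 CPM (24.1 to 47.6) for Inhbb. The threshold for markers of a second compartment was reached by 27.5% of endothelial-like cells, and without such cells the log2 ratio of Bmp6 to fibroblast-like cells was 3.58 (2.92 to 4.26). In lymphatic endothelial-like cells Bmp4 had 41 UMIs and Bmp2 had 0, which allows up to 3.39 CPM, so the endothelial-like classes differed in which BMP transcript they held. Of these Bmp4 UMIs, 15 came from 1 cell and 73.2% from 5 cells. With suffix 2 alone the Bmp4 level of this class was 27.0 CPM (12.3 to 51.2) from 9 UMIs.

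In the cells the sort was meant to collect, transcripts of the 10 genes were few. Over 2039 macrophage-like and dendritic-like cells, 86.0% had no UMI of any of them. Inhba and Bmp2 were the 2 ligand genes with the most UMIs, 372 and 222. Inhba was 14.6 CPM (13.2 to 16.2), with 14.9 (13.2 to 16.8) for suffix 1 and 13.6 (10.9 to 16.8) for suffix 2. Bmp2 was 8.72 CPM (7.61 to 9.94), with 10.0 (8.67 to 11.6) for suffix 1 and 4.81 (3.27 to 6.82) for suffix 2. Gdf10 and Bmp6 had 0 UMIs in these cells, which allows up to 0.118 CPM.

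All 8 fibroblast markers had UMIs in these cells, at a sum of 402 CPM with suffix 1, led by Col1a1 at 148, and 119 CPM with suffix 2, led by Dcn at 38.0. At the ratio of each gene to these markers over all fibroblast-like cells, Inhba would have had 29.9 UMIs with suffix 1 and 0.99 with suffix 2, and 284 and 88 were counted. For Bmp2, 4.20 and 0.733 stood against 191 and 31 counted. Both genes were thus above this ratio in both libraries, but it depends on the fibroblast-like cells used. At the ratio in the Prlr Crabp1 group alone, tried after the data were seen, Inhba would have had 5152 and 507 UMIs and Bmp2 476 and 40.8, more than were counted, though the last lies inside the interval of the count. Without that group it was 0.403 and 0.604 for Inhba and 1.49 and 0.703 for Bmp2. Other genes at the ratio in the Prlr Crabp1 group alone were Bmp4, with 1411 and 289 UMIs against 8 and 0 counted, and Gdf10, with 150 and 10.2 against 0 and 0. For Grem1, 3.26 and 0 stood against 9 and 6 counted. The part of RNA from other cells in these counts was not tested. Fstl1 was at the ratio over all fibroblast-like cells, with 70 counted against 61.3 with suffix 1 and 18 against 19.2 with suffix 2. Fst had 19 against 5.45 with suffix 1 and 13 against 19.5 with suffix 2, so it exceeded that ratio in 1 library and not in the other. Grem1 had 9 against 1.76 with suffix 1 and 6 against 3.68 with suffix 2, the latter inside the interval of the count.

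**Figure D3:**
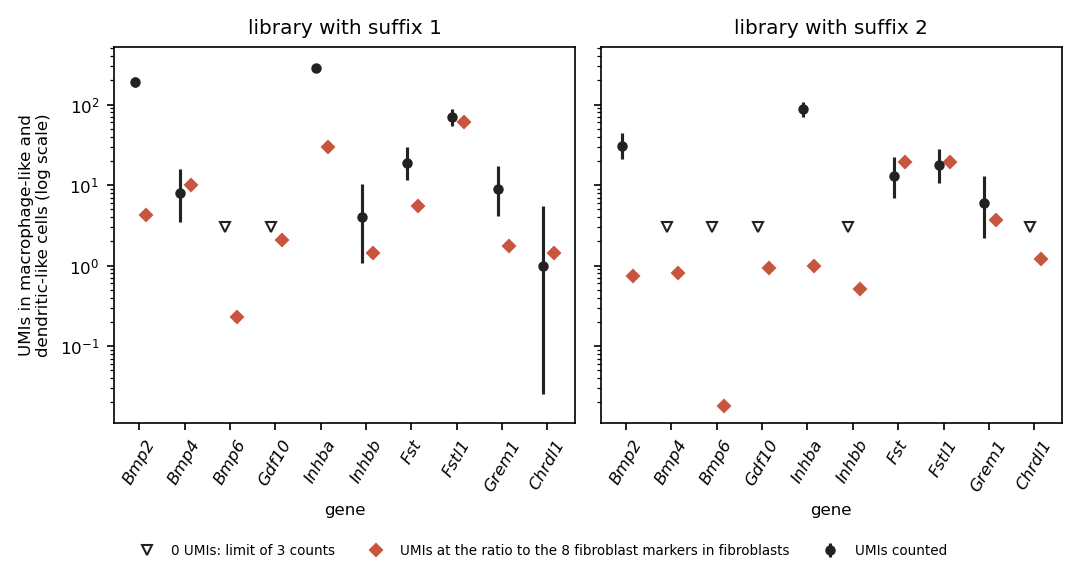
UMIs of each gene counted in macrophage-like and dendritic-like cells of each library (points with exact 95% Poisson intervals, log scale), beside the number these cells would have at the gene's ratio to 8 fibroblast markers over all fibroblast-like cells (diamonds). Inhba (284 and 88 UMIs) and Bmp2 (191 and 31) lie above the diamonds in both libraries, and Fstl1 lies on them.

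Between macrophage-like and dendritic-like cells, 4 of the 10 genes had enough UMIs to compare, and 2 of these, Inhba and Bmp2, differed by 2-fold, where 24.3% of 11749 genes did in either direction. Inhba was 17.6 (15.7 to 19.7) CPM in macrophage-like and 7.74 (5.91 to 9.96) in dendritic-like cells, a log2 ratio of 1.19 (0.78 to 1.61). With suffix 1 alone this ratio was 0.94 (0.49 to 1.42), just under 2-fold, and with suffix 2 alone 1.92 (1.04 to 2.94). Of the dendritic-like Inhba UMIs, 30 of 60 came from 1 cell and 76.7% from 5. Under alternatives chosen after the data were seen, the ratio was 0.98 (0.57 to 1.41) without the dendritic-like cluster led by Igkc and Cd79a, also under 2-fold, 1.51 (1.09 to 1.95) without the macrophage-like clusters that matched monocyte markers best, and 1.93 (1.38 to 2.52) without the cell with the most UMIs of each class. Bmp2 was 11.6 (10.1 to 13.3) CPM in macrophage-like and 2.06 (1.18 to 3.35) in dendritic-like cells, with log2 ratios of 2.49 (1.76 to 3.33) in both libraries, 2.30 (1.52 to 3.20) for suffix 1 alone and 3.12 (1.14 to 6.23) for suffix 2 alone, the last on 2 dendritic-like UMIs, and 2.24, 3.02 and 3.98 under these alternatives. Fst and Fstl1 stayed within 2-fold.

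Within the macrophage-like cells both transcripts lay in few cells. Bmp2 reached 185 CPM (142 to 236) in a cluster of 44 cells led by Ccl3, Ccl4, Il1a and Tnf, where 14 cells carried the 64 UMIs and 25 came from 1 cell. Of that cluster's cells 39 had suffix 1 and 5 suffix 2, and with suffix 1 alone the level was 207 CPM (159 to 265). A larger cluster of 299 cells, led by Cd209f, Cd209g, Ccl8 and Folr2, had Bmp2 at 25.9 CPM (20.04 to 33.0), with 26.5 for suffix 1 and 23.6 for suffix 2. In this cluster 34 cells carried a Bmp2 UMI, and both libraries were alike.

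Inhba was highest in other macrophage-like clusters, 143 cells led by Cfd, Mucl1, Hp and Areg at 50.4 CPM (39.5 to 63.4), 221 cells led by Retnla, Lyz1 and Dcstamp at 35.5 CPM (29.5 to 42.3) and 193 cells led by Spp1 and Trem2, which matched monocyte markers best, at 27.8 CPM (21.1 to 36.1). In the first of these, 51 of 73 UMIs came from 1 cell, with 76.2 CPM for suffix 1 and 3.87 for suffix 2. The cluster led by Retnla was the least concentrated, with 20 cells carrying a UMI and 38.3 and 23.1 CPM in each library. In the cluster led by Spp1 the libraries differed the other way, at 7.84 CPM (4.18 to 13.4) for suffix 1 and 113 CPM (81.9 to 151) for suffix 2, though 27 of its 57 UMIs came from 1 cell and 89.5% from 5. The like Inhba level of macrophage-like cells in both libraries was therefore the sum of clusters that differed between them. Thinned, 1.11% (0.634 to 1.79) of macrophage-like cells had an Inhba UMI and 2.01% (1.35 to 2.87) a Bmp2 UMI (4.78% and 5.57% unthinned, median 10142 UMIs, 61 left out).

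Between the libraries, 6 of the 10 genes differed by 2-fold within fibroblast-like cells, where 17.5% of 11748 genes did. With suffix 1, most fibroblast-like cells were in a cluster led by Igfbp2, Grem1 and Ctla2a (108 of 318) and another led by Prlr and Slc26a7 (78), and with suffix 2 in another led by Myoc, Ptx3 and Cxcl5 (293 of 509) and that led by Igfbp2 (174). Fst was 81.2 CPM with suffix 1 and 1199.8 with suffix 2, a log2 ratio of suffix 2 to suffix 1 of 3.89 (3.76 to 4.01). Grem1 was 26.2 and 226 CPM, a log2 ratio of 3.11 (2.89 to 3.33), and Chrdl1 21.6 and 74.5 CPM, a log2 ratio of 1.78 (1.52 to 2.05). These 3 antagonist genes were called higher with suffix 2, as were 6.73% of all genes. The ligand genes Inhba, Bmp4 and Bmp6 were called lower with suffix 2, as were 10.7% of all genes. Inhba was 445 and 60.8 CPM, a log2 ratio of -2.87 (-3.03 to -2.72). Bmp4 was 150 and 49.7 CPM, a log2 ratio of -1.59 (-1.78 to -1.41), and Bmp6 had 25 and 7 UMIs, a log2 ratio of -1.64 (-3.09 to -0.39). The ligand genes Bmp2, Gdf10 and Inhbb were not called, nor was Fstl1. Of 7206095 and 6277927 fibroblast-like UMIs, Bmp2 had 451 and 283, Gdf10 225 and 361, and Inhbb 155 and 198. With the Prlr Crabp1 group left out after the data were seen, Inhba was 9.73 and 38.2 CPM, the other direction, and Bmp4 48.7 and 37.2. The libraries differ in age, mice and preparation at once, which cannot be told apart.

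These differences were then read within fibroblast subclusters that had at least 10 cells in each library and 20 UMIs of the gene. Fst was higher with suffix 2 in 3 of 6 such subclusters and lower in 0, the largest difference being in the subcluster led by Igfbp2, at 66.1 and 687 CPM, a log2 ratio of 3.38 (2.75 to 4.08). Grem1 was higher with suffix 2 in 2 of 2, with 110.1 and 779 CPM, a log2 ratio of 2.82 (2.34 to 3.35) in the same subcluster, and 5.99 and 159 CPM, a log2 ratio of 4.73 (3.53 to 6.09) in that led by Cthrc1 and Postn, where 16 of 32 UMIs came from 1 cell. Inhba was higher with suffix 2 in 2 of 3, against its pooled direction, but 19 of 43 UMIs in that led by Igfbp2 and 15 of 60 in that led by Chchd10 came from 1 cell, and in the Prlr Crabp1 group it was 1134 and 838 CPM, a log2 ratio of -0.44 (-0.68 to -0.20). The pooled fall of Inhba went with the UMIs of the Prlr Crabp1 group, 2788818 of 7206095 fibroblast-like UMIs with suffix 1 and 177846 of 6277927 with suffix 2, in which both the number of its cells (49 and 12) and their median depth (64076 and 6877.5 UMIs) differ, and its cause was not tested. Bmp4 was lower with suffix 2 in 1 of 4 subclusters, and Chrdl1, Gdf10, Inhbb and Fstl1 were called in 0 of 3, 0 of 5, 0 of 2 and 0 of 7. Bmp2 was higher in 1 of 5 and lower in 1 of 5.

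Over the 37 clusters and fibroblast subclusters, the genes with the most similar pattern were found by the Pearson correlation of log2(CPM + 10). These points share the 2 libraries and differ in depth and in number of cells, and subclusters of a class resemble each other, so the correlations are a description. For Inhba these were Pappa2 (r = 0.82) and the agouti gene a (0.81), and for Inhbb Il17rd (0.79) and Vegfc (0.79). For Bmp2 they were Ampd3 (0.80) and Bicd2 (0.70), for Bmp4 Npr2 (0.87) and Cachd1 (0.86), and for Bmp6 Tbx3 (0.87) and Nes (0.84). Gdf10 and Chrdl1 shared Gabra3 (0.89 and 0.92), beside Inmt (0.93) for Gdf10 and Ildr2 (0.96) for Chrdl1. Inmt also set the Inmt C3 group, so its likeness to Gdf10 repeats the level there. For Fst the most similar genes were Fbln1 (0.90) and Egfr (0.90), for Grem1 Pla2g2e (0.93) and Cdh4 (0.92), and for Fstl1 Fbn1 (0.98) and Serping1 (0.98). Among the members themselves, Gdf10 with Chrdl1 (0.81) and Fst with Fstl1 (0.80) were the most similar pairs. Fst with Inhba, antagonist and ligand, gave r = 0.28, and Grem1 with Bmp4 and Bmp2 0.42 and 0.33. Pairs of an antagonist and a ligand ranged from -0.04 for Grem1 with Gdf10 to 0.81 for Chrdl1 with Gdf10. Among the higher ones were Fstl1 with Bmp4 (0.73) and Fst with Gdf10 (0.71).

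The rest of the pathway was read from a list of 67 genes that includes the 10, and the highest levels given for these genes are those among the named classes. Of 16 further ligand genes, 6 had at least 50 UMIs, and the 5 with the highest level in any named class were Bmp7, Bmp3, Gdf11, Bmp5 and Bmp8a. Bmp7, a ligand that gremlin 1 binds, was highest in the Prlr Crabp1 group at 114 CPM (102 to 127), the group also highest in Inhba and Bmp4. Bmp3 was highest in Schwann-like cells at 16.9 CPM (9.46 to 27.9), which overlaps with keratinocyte-like cells at 12.8 (8.94 to 17.9), Gdf11 in pericyte or smooth muscle-like cells at 14.7 CPM (10.1 to 20.5), which overlaps with the Prlr Crabp1 group at 8.43 (5.45 to 12.4), and Bmp5 and Bmp8a stayed under 10 CPM in the named classes, at 9.50 and 6.74 at most. Mstn, singled out after its values were seen, was 185 CPM (143 to 234) in the unnamed cluster led by Acta1 and Mylpf.

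Of 13 further antagonist genes, 10 had at least 50 UMIs, and Nbl1, Sostdc1, Crim1, Twsg1 and Bmper are named. Nbl1, an antagonist of the gremlin family, was highest in the Igfbp2 Cyp26b1 group at 1046 CPM (1004 to 1089), and Twsg1, a binding partner of chordin, at 199.9 CPM (182 to 219), the group that was also highest in Grem1. Bmper was highest in the Ptx3 Has1 Prg4 group at 74.0 CPM (58.2 to 92.8), the group highest in Fst, and overlapped with the Inmt C3 group at 50.04 (39.6 to 62.4). Sostdc1 was highest in Schwann-like cells at 329 CPM (292 to 369), and Crim1 in lymphatic endothelial-like cells at 220.0 CPM (190.2 to 253), not apart from endothelial-like cells at 205 (191 to 220.2). Chrdl2, also singled out after its values were seen, was 289 CPM (242 to 343) in the unnamed cluster led by Erfe and Gal. The antagonist genes thus had their highest levels in different classes, as the members did.

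Of 9 receptor genes 7 had at least 50 UMIs, with Bmpr2, Acvrl1, Bmpr1a, Acvr1 and Acvr1b named. The type II receptor gene Bmpr2 was 109 CPM in fibroblast-like, 177 in endothelial-like and 37.7 in macrophage-like and dendritic-like cells. Acvrl1, a type I receptor gene known from endothelium, was highest in endothelial-like cells at 158 CPM (146 to 172). It was 127 CPM in pericyte or smooth muscle-like cells, 59.6 in fibroblast-like cells and 58.4 in macrophage-like and dendritic-like cells. Bmpr1a, a type I receptor gene for BMP2 and BMP4, was 58.7 CPM in fibroblast-like, 3.22 in endothelial-like and 0.982 in macrophage-like and dendritic-like cells, highest in the Prlr Crabp1 group at 87.6 CPM (77.3 to 98.97), which overlaps with Schwann-like cells at 66.5 (50.6 to 85.8). For activin, the type I receptor gene Acvr1b was 12.3, 9.13 and 8.87 CPM in these 3 classes, and Acvr1, known mainly as a type I receptor gene for BMPs, 32.1, 22.8 and 8.64.

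Of 6 coreceptor genes 5 had at least 50 UMIs, Eng, Tgfbr3, Bambi, Rgmb and Rgma. Eng, the gene of endoglin, was highest in endothelial-like cells at 521 CPM (498 to 545), Tgfbr3 in the Inmt C3 group at 447 CPM (415 to 481) and Bambi, a pseudoreceptor gene, in the Prlr Crabp1 group at 108 CPM (96.1 to 120), which overlaps with lymphatic endothelial-like cells at 81.2 (63.6 to 102). For Rgmb and Rgma the highest class was not apart from the next. Rgmb was 55.0 CPM (45.6 to 65.7) in the Igfbp2 Cyp26b1 group and 54.3 (45.9 to 63.8) in keratinocyte-like cells, and Rgma 24.7 CPM (16.0 to 36.4) in the Ptx3 Has1 Prg4 group, 24.1 (18.0 to 31.5) in the Igfbp2 Cyp26b1 group, and 32.6 CPM (16.8 to 56.9) and 28.9 CPM (15.4 to 49.5) in the unnamed clusters.

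Of 8 SMAD genes 7 had at least 50 UMIs. Smad7, an inhibitory SMAD, was highest in the Prlr Crabp1 group at 539 CPM (513 to 566), and Smad4, the common partner, at 138 CPM (125 to 152). Smad1, Smad5 and Smad2, which receptors phosphorylate, were highest in lymphatic endothelial-like cells at 307, 108 and 64.3 CPM, and Smad2 overlapped with Schwann-like cells at 46.2 (33.2 to 62.7).

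All 8 listed target genes had at least 50 UMIs, and Id3, Id1, Id2, Smad7 and Bambi are named. Id1, which BMP signalling is known to induce in many cells, was 1444 CPM in endothelial-like cells (1416 and 1473 in each library), 68.7 in fibroblast-like cells (91.9 and 42.1) and 12.8 in macrophage-like and dendritic-like cells. Among fibroblast groups Id1 was 131 CPM in the Prlr Crabp1 group, 73.1 in the Igfbp2 Cyp26b1 group, 18.4 in the Inmt C3 group and 8.88 in the Ptx3 Has1 Prg4 group. With suffix 1 alone Id1 was 146 CPM in the Igfbp2 Cyp26b1 group and 131 in the Prlr Crabp1 group, with intervals that overlap, so this order was not seen in it. In the Inmt C3 group Id1 was 4.29 CPM for suffix 1 and 24.3 for suffix 2. Id3 was highest in pericyte or smooth muscle-like cells at 1791 CPM (1737 to 1847), which overlaps with lymphatic endothelial-like cells at 1668 (1584 to 1755), with 740.1 CPM in fibroblast-like and 67.3 in macrophage-like and dendritic-like cells. Id2 went the other way, at 803 CPM in macrophage-like and dendritic-like cells and 114 in fibroblast-like cells. These genes respond to other signals too, and no signalling was measured.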

How the data were processed

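The deposited matrix of the authors, a table of UMI counts for 32285 genes and 5257 barcodes, was read as given. According to the submitters' processing notes it was made with Cell Ranger 4.0.0 against mm10, while the annotation release and any earlier filter on cells were not given in these sources. The 10 genes and the lists below were chosen with earlier results of these data known.

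The filter on cells asked for 500 or more genes, 1000 or more UMIs and 10% or less mitochondrial UMIs. Counts were scaled to 10000 per cell and logged, and 2000 variable genes, 30 principal components, 15 neighbours, Leiden clustering at resolution 1 and seed 1 were used, with the 67 genes of the pathway list, the 10 among them, left out. Each cluster was scored against 16 marker lists by the mean log2 ratio of its markers to the median over clusters, after 10 CPM were added. The best list gave the name, with monocyte taken as macrophage and mature dendritic and Langerhans as dendritic, if at least 3 of its markers reached 20 CPM and 2-fold over that median, unless more of the leading genes were markers of another class. The cluster led by the B cell genes Igkc and Cd79a was named dendritic-like, with 9 of 9 dendritic markers detected. These naming thresholds, this joining of lists, and the rule that leaves a cluster without a name where skeletal muscle genes lead, were chosen after seeing the data. Fibroblast-like cells were clustered again, and a subcluster of at least 20 cells joined a group if each of the group's genes was 2-fold over the median subcluster and the group led the next by 0.5 (log2).

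UMIs were summed per class, and log2 ratios of CPM carry exact intervals. A gene was called at 2-fold with at least 20 UMIs in both classes together, and a count of 0 was set to 3 counts. Shares of cells were computed after each cell was thinned to 2000 UMIs. No doublet caller was run. Gene positions came from GENCODE vM21 (GRCm38), which matched 32158 of the identifiers. The calls and intervals were tested on simulated data, and the outcome of that test is not given here.

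The genes named are the 10, up to 5 per role of the pathway list with the highest CPM in any named class among those with at least 50 UMIs, and for each of the 10 the 2 genes of the most similar pattern, out of 7782 with at least 100 UMIs that reach 50 CPM in a cluster. Leading genes of clusters are named to identify them, and Mstn and Chrdl2, high in clusters without a name, were added after their values were seen.

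Alternatives were a looser and a stricter cell filter, resolutions 0.5 and 2, 3000 variable genes, the pathway genes allowed in the clustering, classes set per cell, each library alone, removal of 387 cells whose marker share of a second compartment was at least 20% of the median in that compartment's own cells, means over cells in place of sums, calls at 1.5-fold and 4-fold, minima of 10 and 50 UMIs, and thinning to 1000 and 4000 UMIs. Added after seeing the data were leaving out the dendritic-like cluster led by Igkc and Cd79a, the macrophage-like clusters with monocyte as best list, the cell with the most UMIs of each of these classes, and the Prlr Crabp1 group, and taking the ratio to fibroblast markers from that group alone or without it. Python 3.11.15, scanpy 1.11.5, numpy 2.4.6, scipy 1.17.1, pandas 2.3.3, igraph 0.11.9 and matplotlib 3.10.9 were used.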

Additional observations from a re-analysis of the deposited data

Results flagged for a closer look

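The cell filter left out 1460 barcodes, 1149 of them over the limit on mitochondrial UMIs, and the comparisons do not use them. They had a median of 2004.5 UMIs against 10870 in kept cells, and 3 of the 10 genes stood at a higher level in them than in kept cells with intervals that do not overlap, as did 16.6% of 15530 genes. Grem1 was 73.7 CPM against 34.0, with 85.8 against 8.44 for suffix 1 and 58.3 against 80.6 for suffix 2, so the difference was that of suffix 1. Inhbb was 18.1 CPM against 11.9, with 19.2 against 8.84 for suffix 1 and 16.8 against 17.4 for suffix 2. Chrdl1 was 17.2 CPM against 15.2 with intervals that overlap, but 16.6 against 7.26 for suffix 1, where they do not, and 18.0 against 29.6 for suffix 2. Bmp6 was 14.99 CPM against 5.16, with 14.9 against 4.76 and 15.1 against 5.89 in each library. All 8 fibroblast markers, led by Col1a1, had UMIs in these barcodes, at a sum of 4261 CPM against 22351 in kept cells. Which cells these barcodes came from was not tested.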

How the results depend on the processing

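Under the alternatives 935 values were recomputed, of which 645 stayed within their counting interval or within 1.5 times the count, 290 moved further and 0 changed direction while called. Of 53 ratios of at least 2-fold, all 547 values under the alternatives kept their direction, and 523 of them stayed past 2-fold. Each changes 1 choice, and with 2 changed, suffix 1 alone and without the Prlr Crabp1 group, the log2 ratio of Inhba in fibroblast-like over macrophage-like and dendritic-like cells turned to -0.62. The share of Prlr Crabp1 cells with an Inhba UMI, 72.1%, moved under 7 of them. It was 49.5% with the looser cell filter, 54.0% with the stricter, 51.0% at resolution 0.5, 51.0% with 3000 variable genes, 33.3% with classes set per cell, 33.3% with suffix 2 alone and 52.5% when thinned to 1000 UMIs, and the cause was not tested. The number of the 10 genes that differed between the libraries within fibroblast-like cells was 6 at 2-fold and 3 at 4-fold, where the stricter threshold itself calls fewer genes.

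The Ptx3 Has1 Prg4 group was not found at resolution 0.5 and had 1 cell with suffix 1, and the libraries cannot be compared within 1 library, so these settings gave no value.

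No paired analysis was possible because each age has 1 library of pooled mice and no pairing is given. With 1 library per age and no source that ties a suffix to an age, spread between mice and any effect of age cannot be measured here. Genes with few UMIs, such as Bmp6, are limited by depth, since 0 UMIs allow up to 0.118 CPM in macrophage-like and dendritic-like cells but up to 3.39 CPM in lymphatic endothelial-like cells. The part of doublets and of RNA released from other cells in low levels was not tested.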
